A study of Mus musculus with 8 samples.

Results

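The genes described here are 30 genes of sterol synthesis and of the SREBP pathway, which were taken from the deposited count table by their symbols. The table has 17823 genes, and all 30 were among the 12610 genes that passed the filter on low counts and were tested. By role, 9 genes are grouped as enzymes from acetyl-CoA to farnesyl and geranylgeranyl diphosphate, and 10 encode enzymes from squalene to cholesterol. Another 7 encode the control machinery of the SREBP factors, and 4 act in the transport and storage of sterol. The 9 include the mitochondrial thiolase Acat1, although the thiolase that starts the route is the cytosolic Acat2.

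Cells make cholesterol from acetyl-CoA through mevalonate, isoprenoid diphosphates, squalene and lanosterol. The genes of this route are switched on together by SREBP-2, the product of Srebf2, while SREBP-1, the product of Srebf1, acts mainly on fatty acid genes. Both factors are held in the endoplasmic reticulum by Scap and the Insig proteins when sterol is plentiful, and are otherwise carried to the Golgi, where the proteases encoded by Mbtps1 and Mbtps2 release them. In macrophages, which take up lipid from dead cells and lipoproteins and export it again, sterol synthesis and efflux are known to change with activation through Toll-like receptors.

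The study compared macrophages that carry a tdT reporter of Il19, a cytokine gene of the IL-10 family, according to whether the reporter was on. Macrophages were grown for 7 days from bone marrow of C57BL/6 mice with 20 ng of M-CSF, the growth factor that drives marrow cells to macrophages, and both groups were treated with 1 µg/ml of LPS, the bacterial lipopolysaccharide that signals through Toll-like receptor 4. The tdT-positive group and the tdT-negative group each had 4 libraries, numbered 1 to 4 in the labels and called biological replicates there. How the reporter was built, the time in LPS, the age of the mice and how positive cells were separated were not stated in the labels. No library without LPS was analysed here, so every value below is from stimulated cells.

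Each library held 49850537 to 58516454 counts, and 3 counts came to between 0.0490 and 0.0696 CPM (counts scaled to the size of the library, with TMM, edgeR's normalization between libraries). Il19 followed the labels, with 183, 145, 177 and 234 CPM in the positive libraries 1 to 4 against 10.4, 9.17, 17.0 and 11.3 in the negative ones (log2 fold change 3.95, SE 0.23, adjusted p = 0.000669, edgeR quasi-likelihood test). Positive library 3 stood apart in ribosomal RNA: Rn45s was at 141822 CPM there and at 3132 to 7467 in the other 7 libraries. Libraries with the same number deviated together across genes, with correlations of 0.63, 0.28, 0.62 and 0.56 for numbers 1 to 4 over the 12610 genes. The number was therefore also fitted as a block, which compares the groups within each number. Summed macrophage markers ran from 14702 to 19266 CPM in the positive and from 12399 to 22196 in the negative libraries, and their most abundant gene was Lyz2. Markers of other cells were lower in the positive libraries: stromal markers, led by Col1a1, summed to 84.6 to 217 against 357 to 3151 CPM, neutrophil markers, led by S100a9, to 3.18 to 6.81 against 14.4 to 274, and monocyte markers, led by S100a4, to 98.1 to 173 against 213 to 395. The neutrophil granule gene Prtn3 had no count in any positive library and 150 counts over the negative ones. Elane and Ctsg also had none in the positive libraries, but only 5 and 13 counts over the negative ones, too few to compare. Osteoclast markers, led by Mmp9, summed to 128 to 327 CPM in the positive libraries and to 109 to 2860 in the negative ones. Gene by gene, 7 of these 8 markers had blocked estimates below 0 and 1 above. The positive library was the lower one in all 4 numbers for 5 of them, as for 19.6% of all genes. In these bulk samples, fewer cells of a type and less RNA per cell cannot be told apart.

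Of the 30 genes, 24 had an entry in the RefSeq table of promoters (GRCm38.p6). Acat1, Fdft1, Fdps, Npc1, Sqle and Stard4 had none. The 250 bases before each start were searched on both strands for TCACNCCAC, a core of the sterol regulatory element, for CCAAT, the box bound by NF-Y, and for CACGTG, an E-box. TCACNCCAC occurred in 1 of the 24 genes (4.17%), Hmgcs1, and in 331 of the 27025 genes of the table (1.22%). CCAAT occurred in 20 of the 24 (83.3%) and in 37.5% of all genes in the table, and CACGTG in 5 of the 24 (20.8%) and in 6.86%. A gene counted once if any of its annotated starts held a match, and a match is a run of letters, not a measured binding site. Promoters of 4 genes are shown, which together hold each of the motifs: the mevalonate enzymes Hmgcs1 and Mvd, the sterol desaturase Sc5d, and the SREBP retention protein Insig1. Each is written 5′ to 3′ in the direction of the gene, and capitals mark matches to any of the 3 motifs on either strand. The Insig1 stretch was ended before its first annotated exon. The TCACNCCAC match of Hmgcs1 began 137 bases before the start.
Hmgcs1 (chr13:119690101-119690350, + strand): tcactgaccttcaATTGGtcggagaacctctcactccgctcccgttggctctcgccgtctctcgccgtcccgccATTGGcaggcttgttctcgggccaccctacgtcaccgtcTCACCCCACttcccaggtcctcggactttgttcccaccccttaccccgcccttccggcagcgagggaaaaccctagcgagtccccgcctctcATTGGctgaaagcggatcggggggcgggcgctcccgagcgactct
Mvd (chr8:122443423-122443672, - strand): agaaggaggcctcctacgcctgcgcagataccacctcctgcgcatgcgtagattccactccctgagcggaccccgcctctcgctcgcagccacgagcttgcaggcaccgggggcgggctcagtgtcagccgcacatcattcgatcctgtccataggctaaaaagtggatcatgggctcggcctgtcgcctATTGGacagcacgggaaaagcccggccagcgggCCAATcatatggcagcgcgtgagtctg
Sc5d (chr9:42264301-42264550, - strand): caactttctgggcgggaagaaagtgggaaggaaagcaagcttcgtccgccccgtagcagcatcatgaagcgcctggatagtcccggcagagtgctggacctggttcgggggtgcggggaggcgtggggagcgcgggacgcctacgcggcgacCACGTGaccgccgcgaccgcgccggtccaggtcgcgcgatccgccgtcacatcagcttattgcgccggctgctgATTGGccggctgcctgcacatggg
Insig1 (chr5:28071162-28071362, + strand): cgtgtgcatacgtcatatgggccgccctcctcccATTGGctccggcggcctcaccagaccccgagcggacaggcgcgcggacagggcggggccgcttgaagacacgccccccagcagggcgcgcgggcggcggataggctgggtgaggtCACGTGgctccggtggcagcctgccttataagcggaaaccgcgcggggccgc

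As a set, the sterol genes were at nearly the same level in tdT-positive and tdT-negative macrophages. The mean over the 30 genes of log2 CPM was 4.81, 4.66, 4.83 and 4.59 in the positive libraries 1 to 4 and 4.86, 4.69, 4.75 and 4.55 in the negative ones. The groups overlapped throughout: library 4 was lowest in each, and the positive library 3 lay close to the negative library 1. The means were 4.72 ± 0.12 (SD, n = 4) and 4.71 ± 0.13 (SD, n = 4), a difference of 0.0061 on the log2 scale, or 1.00-fold. The interval of that difference, from inverting the exact permutation test over the 70 ways to place 8 libraries in 2 groups of 4, ran from -0.27 to 0.28 at a level of 97.1%, which is 0.829-fold to 1.21-fold. Within numbers, the positive library minus the negative one was -0.048, -0.038, 0.076 and 0.035 for numbers 1 to 4, 2 differences on each side of 0, with an SD of 0.060. Without positive library 3, which stood apart in ribosomal RNA, the set difference was -0.026. The range of those 4 differences is itself the interval of the paired sign-flip test over its 16 flips, at a level of 87.5%.

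**Figure D1:**
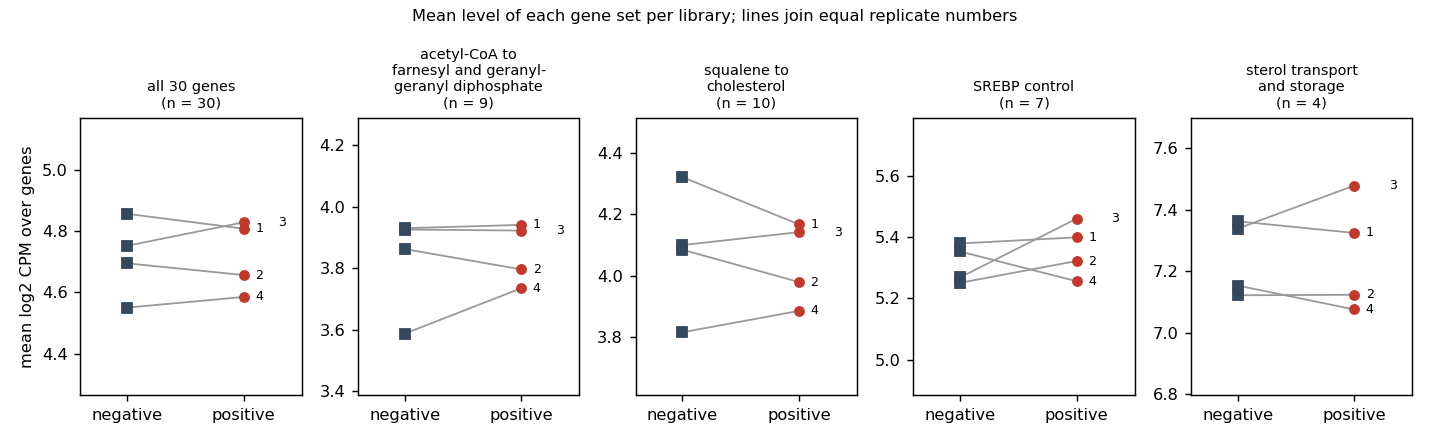
Mean log2 CPM over all 30 genes and over each of the 4 role groups, for the tdT-negative libraries (squares) and tdT-positive libraries (circles); lines join libraries of the same replicate number and each panel has its own y range. In the first panel the means of numbers 1 to 4 are 4.83, 4.68, 4.79 and 4.57, and the lines between the groups are short beside those gaps.

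The spread of the set lay between replicate numbers. The number means of the set were 4.83, 4.68, 4.79 and 4.57, a range of 0.26, and number took 94.0% of the sum of squares of the set mean, group 0.082% and the remainder 5.92%. Gene by gene, the median share of number was 74.9% over the 30 genes and 62.3% over all genes tested, where 42.9% is its share of the degrees of freedom. The median share of group was 4.18% over the 30 genes and 14% over all genes, against 14.3% of the degrees of freedom. The range of the number means was no wider in the sterol genes than elsewhere, with a median of 0.44 on the log2 scale against 0.45 over all genes. Number 4 held the lowest mean for 14 of the 30 genes (46.7%, against 29.5% of all genes), and number 1 the highest for 14 (46.7%, against 22.8%). What the number marks is not stated in the labels. The p-values without the block are judged against the spread between these samples within a group. Those with the block are judged against the remainder left after number is taken out.

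**Figure D2:**
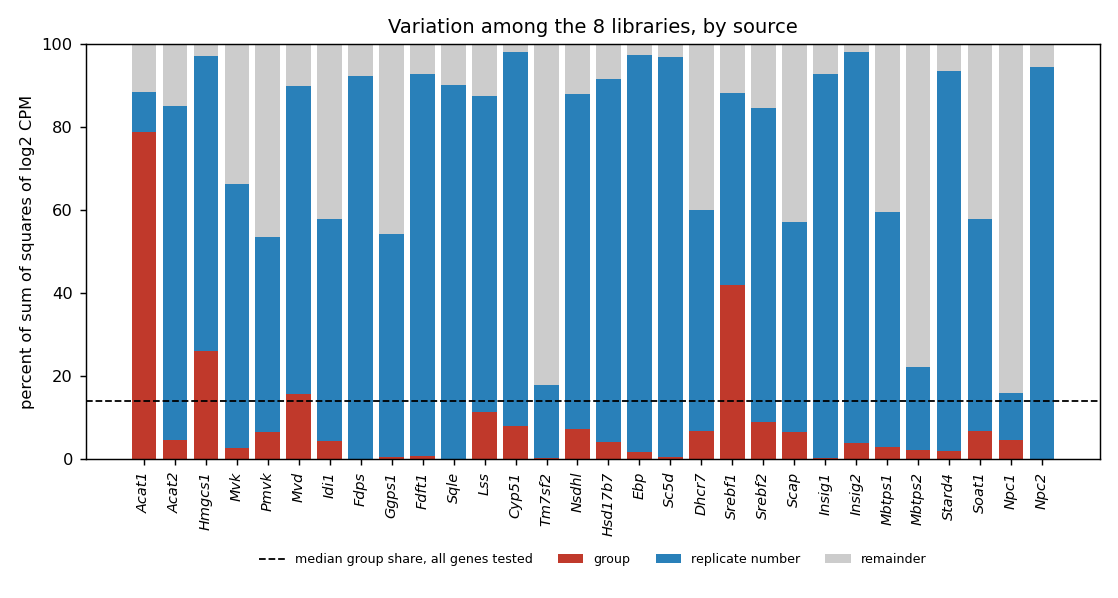
Share of the sum of squares of log2 CPM over the 8 libraries that lies between groups (red), between replicate numbers (blue) and in the remainder (grey), for each of the 30 genes; the dashed line is the median group share over all genes tested, 14%. Acat1, Hmgcs1, Mvd and Srebf1 lie above the line, and number took the larger share in 29 of the 30 genes.

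In the test of each gene without the block, no sterol gene passed an adjusted p of 0.05 (edgeR quasi-likelihood test with Benjamini-Hochberg adjustment over 12610 genes), where 3 of all genes passed, or 0.0238% (0.00793% higher and 0.0159% lower). Of the 30, 1 had an unadjusted p under 0.05 (all genes 16.3%), limma voom passed 0 and DESeq2's Wald test passed 1, the gene being Acat1 in both counts of 1. With the replicate block, 1 of the 30 genes passed (3.33%), the mitochondrial thiolase Acat1, which fell, and none rose. The background was 15.7% of all genes with the block, 8.3% higher and 7.43% lower. DESeq2 with the block passed 2 genes, Acat1 and Hmgcs1, and limma voom with the block passed 1. The unadjusted p with the block was under 0.05 for 4 of the 30 (Acat1, Hmgcs1, Srebf1 and Cyp51) and for 32.6% of all genes.

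The estimates themselves were small, and with the block their intervals were narrow. The median log2 fold change was -0.0031 without and 0.012 with the block, against -0.00024 and 0.0051 over all genes, with 16 estimates above and 14 below 0. The median size, without sign, was 0.07 with the block, against 0.16 over all genes, at a median SE of 0.08 against 0.09. The size was under 0.2 in 28 of the 30 genes (93.3%), all but Acat1 and Hmgcs1, and in 58.3% of all genes. The 95% interval of the blocked estimate lay within 1.5-fold in either direction for 29 genes (96.7%, all genes 70.5%), the exception being Idi1, and within 2-fold for all 30 (all genes 85.5%). Without the block the intervals of Acat1 (-0.60 to -0.18), Idi1 (-0.43 to 0.72) and Dhcr7 (-0.62 to 0.28) went beyond 1.5-fold. The positive library was the higher one in all 4 numbers for 5 genes (Hmgcs1, Mvd, Lss, Srebf1 and Insig2) and the lower one for 2 (Acat1 and Cyp51), 7 of 30 with 1 direction, where 41.5% of all genes had 1 direction, 21.9% higher and 19.6% lower. These counts describe the list and were not tested against other lists.

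**Figure D3:**
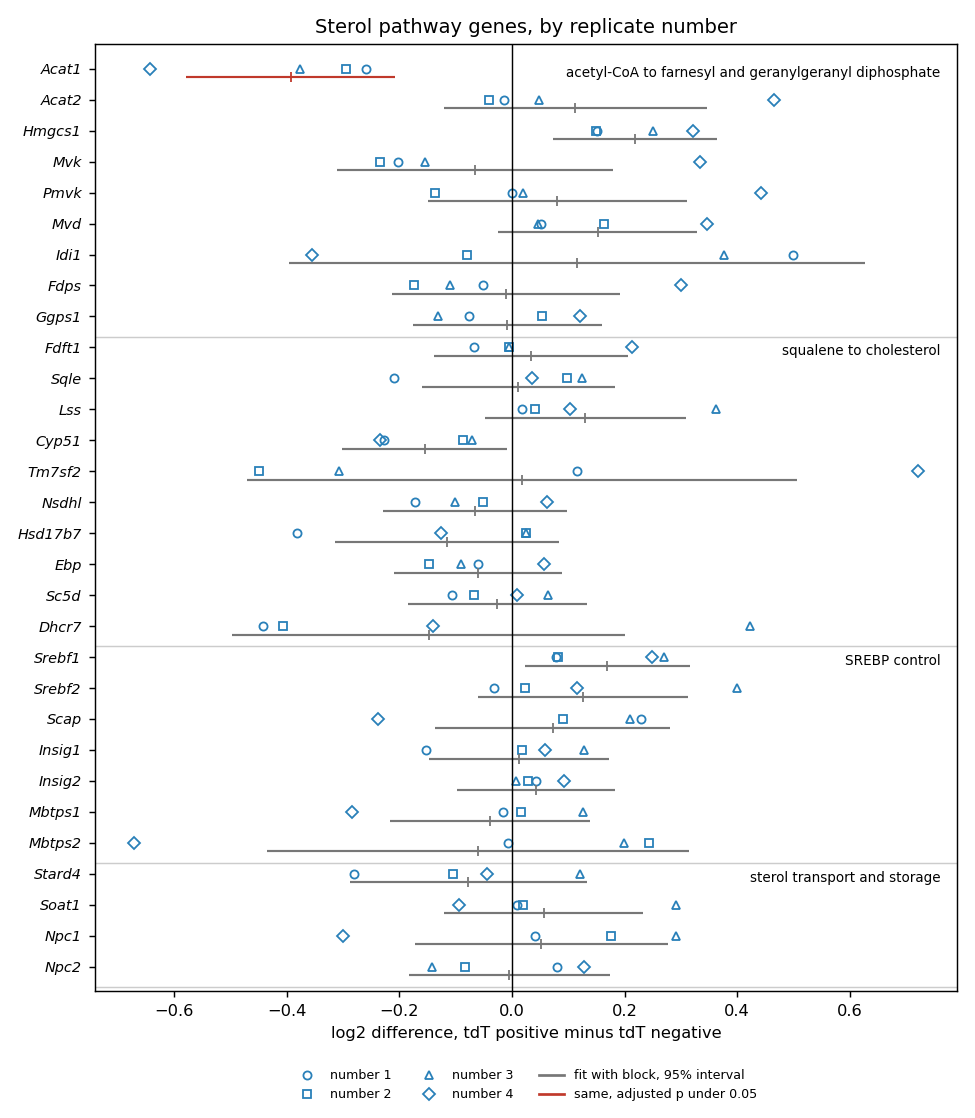
Log2 difference between the tdT-positive and tdT-negative library of each replicate number (symbols) for the 30 genes, with the estimate of the blocked edgeR fit (tick) and its 95% interval (line; red where adjusted p was under 0.05). The interval of Acat1, from -0.58 to -0.21, is the only red one, and those of Hmgcs1, Srebf1 and Cyp51 also leave out 0 before adjustment.

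Among the 9 enzymes from acetyl-CoA to the isoprenoid diphosphates, Acat1 was lower in tdT-positive macrophages and the others did not pass. Acat1 (chr9:53580522-53610350, GRCm38.p6, minus strand) encodes the mitochondrial acetyl-CoA acetyltransferase, a thiolase known for its part in ketone body and isoleucine breakdown, and is a different gene from Soat1, whose protein is also called ACAT1. It was at 23.2, 23.1, 23.5 and 18.7 CPM in the positive libraries 1 to 4 and at 27.7, 28.3, 30.5 and 29.3 in the negative ones. Each positive library was below each negative one, and Acat1 was the sole gene of the 30 whose groups did not overlap, where 11.4% of all genes did not overlap, 5.46% higher and 5.92% lower. The means were 22.1 ± 2.26 and 29.0 ± 1.21 CPM (SD, n = 4 each). The log2 fold change was -0.39 (SE 0.09, adjusted p = 0.0800, edgeR) without the block and -0.39 (SE 0.08, adjusted p = 0.0190) with it. Positive library 4 was the lowest by a gap, and the blocked fold change without number 4 was -0.30 (adjusted p = 0.0128). Without number 1, 2 or 3 the blocked adjusted p was 0.0506, 0.0895 and 0.0709, at -0.43, -0.44 and -0.41, so the call was lost when any 1 of those 3 was left out. Stromal, neutrophil and monocyte markers were lower in the same libraries (summed values above), and their part in the difference of Acat1 was not tested.

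Hmgcs1 (chr13:119690351-119708260, plus strand) encodes the cytosolic HMG-CoA synthase, an early enzyme on the way to mevalonate. Its level was 47.8, 34.4, 41.0 and 47.7 CPM in the positive libraries 1 to 4 and 43.0, 31.1, 34.5 and 38.2 in the negative ones. The positive library was above the negative one in each of the 4 numbers, while the groups overlapped because number 2 was low in both. Means were 42.7 ± 6.37 and 36.7 ± 5.12 CPM (SD, n = 4 each). The log2 fold change was 0.22 (SE 0.14, adjusted p = 0.487, edgeR) without the block and 0.22 (SE 0.06, adjusted p = 0.0521) with it, and DESeq2's Wald test with the block gave an adjusted p of 0.0263.

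The other 7 enzymes of this stretch had blocked log2 estimates between -0.07 and 0.15. Mvd, the mevalonate diphosphate decarboxylase, was above in each number, at 19.5, 18.3, 22.7 and 18.7 against 18.8, 16.4, 22.0 and 14.7 CPM (0.15, SE 0.08, adjusted p = 0.210, edgeR with block). Acat2, the cytosolic thiolase that starts the route, had an estimate of 0.11, Pmvk, the phosphomevalonate kinase, 0.08, and Mvk, the mevalonate kinase, -0.07. For these 3 kinase and thiolase genes the negative library 4 was the lowest of the 8, at 7.28 CPM for Acat2, 13.3 for Pmvk and 10.1 for Mvk. Fdps, which makes farnesyl diphosphate, ran from 21.6 to 34.4 CPM in the positive and from 17.5 to 37.2 in the negative libraries, with an estimate of -0.01 (SE 0.09). Ggps1, which makes the geranylgeranyl donor, had the narrowest range of number means of the 9, at 16.2 to 18.8 and 16.8 to 19.1 CPM (-0.01, SE 0.07). Idi1, the isopentenyl diphosphate isomerase, was barely detected, at 0.784 to 1.51 and 0.912 to 1.15 CPM, with its lowest library at 48 counts, and its interval ran from -0.40 to 0.63. Over the 9 genes the group difference was 0.022 (interval -0.20 to 0.35), and the number differences were 0.011, -0.066, -0.0035 and 0.15.

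The 10 enzymes from squalene to cholesterol varied more between replicate numbers than between the groups. None passed with or without the block, and the largest blocked estimate in size was -0.16, that of Cyp51. The mean log2 level of the 10 genes was 4.17, 3.98, 4.14 and 3.88 in the positive libraries 1 to 4 and 4.32, 4.08, 4.10 and 3.82 in the negative ones. Number 1 was highest and number 4 lowest in both groups. The group difference was -0.037 (interval -0.44 to 0.35) and the range of the number means was 0.39. Number took more than 80% of the sum of squares in 7 of the 10 genes (70%), against 13 of all 30 (43.3%) and 26.7% of all genes tested.

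Sqle, the squalene epoxidase and a rate-limiting step of its own, was at 40.5, 31.6, 41.4 and 34.2 CPM in the positive libraries 1 to 4. In the negative libraries it was at 46.9, 29.6, 38.0 and 33.4 CPM. Numbers 1 and 3 were high and numbers 2 and 4 low in both groups, and number took 89.9% of its sum of squares. The group means, 36.9 ± 4.78 and 37.0 ± 7.46 CPM (SD, n = 4 each), were nearly equal, and the blocked log2 fold change was 0.011 (SE 0.07, interval -0.16 to 0.18, adjusted p = 0.932, edgeR). Cyp51, the lanosterol demethylase, was lower in the positive library of each number: 44.1, 35.8, 41.8 and 27.1 against 51.6, 38.0, 43.9 and 31.9 CPM. The group ranges overlapped widely, and the estimate was -0.15 (SE 0.19, adjusted p = 0.758) without and -0.16 (SE 0.06, interval -0.30 to -0.01, adjusted p = 0.134) with the block. Lss, which closes the rings to lanosterol, went the other way in each number, at 29.5, 27.3, 24.9 and 23.7 against 29.1, 26.6, 19.3 and 22.1 CPM (0.13, SE 0.08, adjusted p = 0.284, edgeR with block).

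Fdft1, the squalene synthase, had 19.4, 14.2, 17.9 and 16.4 CPM in the positive and 20.3, 14.2, 17.9 and 14.1 in the negative libraries, nearly equal in numbers 2 and 3. Sc5d, a sterol desaturase near the end of the route, had 19.3, 14.1, 16.7 and 15.0 against 20.8, 14.8, 16.0 and 14.9 CPM, and number took 96.4% of its sum of squares. Ebp, the sterol isomerase, reached its top level in number 3 of both groups, at 37.8 and 40.2 CPM, and number took 95.7%. The demethylation enzyme Nsdhl and the ketosterol reductase Hsd17b7 had blocked estimates of -0.07 and -0.12, and Dhcr7, the reductase of the last step, one of -0.15 with an interval of -0.50 to 0.20. Tm7sf2, a sterol reductase, was the weakest of the 10 at 1.74 to 2.97 CPM. It had no common pattern by number, and 12.1% of its exon bases are shared with Vps51 on the same strand.

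**Figure D4:**
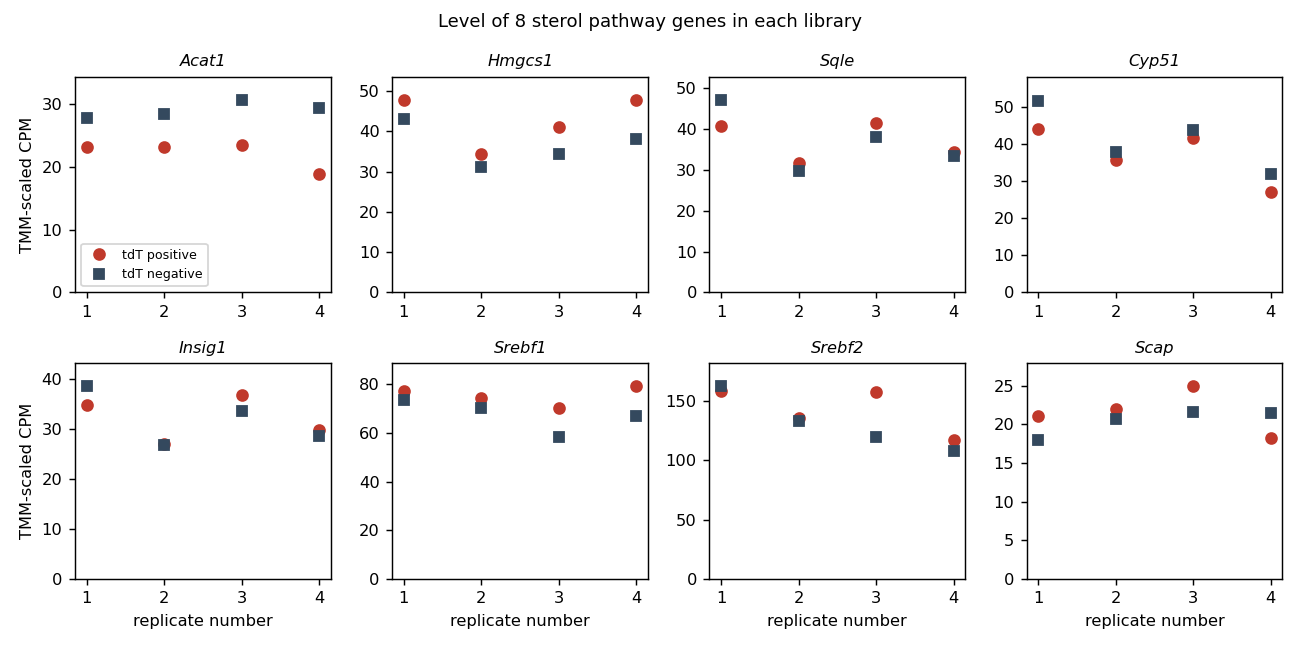
TMM-scaled CPM (y axis from 0) of 8 genes in each library, by replicate number (x axis), for tdT-positive (circles) and tdT-negative (squares) libraries. In the Acat1 panel the 4 positive libraries, at 18.7 to 23.5 CPM, lie under all negative ones, at 27.7 to 30.5; in the Sqle, Cyp51 and Insig1 panels both groups rise and fall together over the numbers.

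The 7 genes that control SREBP were expressed in every library, and none passed with or without the block. Srebf2 (chr15:82147269-82205379, plus strand), the main activator of sterol synthesis, was at 159, 136, 157 and 117 CPM in the positive libraries 1 to 4 and at 163, 134, 119 and 108 in the negative ones. The groups overlapped, and number 3 alone showed a wide gap. Means were 142 ± 20.0 and 131 ± 23.7 CPM (SD, n = 4 each). The log2 fold change of Srebf2 was 0.12 (SE 0.15, adjusted p = 0.769, edgeR) without the block and 0.13 (SE 0.08, adjusted p = 0.319) with it. Srebf1 (chr11:60199084-60224186, minus strand) was at 77.5, 74.5, 70.4 and 79.5 CPM in the positive libraries and at 73.4, 70.4, 58.4 and 66.9 in the negative ones. It was higher in the positive library of each number, and the groups overlapped between 70.4 and 73.4 CPM. Its log2 fold change was 0.17 (SE 0.09, adjusted p = 0.411) without the block and 0.17 (SE 0.06, interval 0.02 to 0.32, adjusted p = 0.106, edgeR) with it. Gene counts do not separate the 2 isoforms of SREBP-1, which start from different promoters.

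Scap (chr9:110333288-110384949, plus strand), the sterol sensor that escorts the factors, was at 21.1, 22.0, 25.0 and 18.2 CPM in the positive and at 18.0, 20.7, 21.6 and 21.5 in the negative libraries. It was higher in numbers 1 to 3 and lower in number 4, and its blocked log2 fold change was 0.07 (SE 0.09, adjusted p = 0.622, edgeR). Insig1 (chr5:28071412-28078662, plus strand) retains Scap in the endoplasmic reticulum and is itself a known target of SREBP-2. Its levels were 34.7, 27.0, 36.7 and 29.7 CPM in the positive libraries and 38.6, 26.7, 33.6 and 28.5 in the negative ones. They rose and fell by number as those of Sqle did, with number at 92.7% of the sum of squares, and the group means of 32.0 ± 4.46 and 31.9 ± 5.36 CPM (SD, n = 4 each) differed by 0.01 on the log2 scale (blocked interval -0.15 to 0.17, adjusted p = 0.919, edgeR). Insig2, the second retention protein, followed another order, with numbers 1 and 4 high, at 29.2, 26.1, 24.9 and 30.7 against 28.3, 25.6, 24.8 and 28.8 CPM. Number took 94.2% of its sum of squares and the blocked estimate was 0.04 (SE 0.06). The protease gene Mbtps1 had an estimate of -0.04 (SE 0.08). Mbtps2, the other protease, was at 25.9 CPM in the negative library 4 and at 15.8 to 20.6 in the other 7 libraries, and 28.4% of its exon bases are shared with Yy2 on the same strand. Over the 7 control genes, the group difference was 0.05 (interval -0.12 to 0.21), and number took 35.4% of the sum of squares of the set mean, the lowest share of the 4 role groups.

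Of the 4 transport and storage genes, 3 were the most abundant of the 30, and none of the 4 passed with or without the block. Per kilobase of gene length, Npc2 had 580 CPM, Soat1 42.6, Npc1 30.3 and Srebf2 29.9, while Fdps had 19.4, Sqle 13.4, Hmgcs1 11.1 and Idi1, the lowest, 0.382. Npc2, which passes cholesterol to Npc1 inside the lysosome, had a blocked log2 estimate of -0.01 (SE 0.08), and its number share was 94.4%. Npc1, the lysosomal membrane exporter, had the narrowest range of number means of the 30 genes, 0.11, at 161, 173, 167 and 141 CPM against 157, 153, 136 and 173. Soat1, which esterifies cholesterol for storage, was at 207, 191, 243 and 191 CPM in the positive and 206, 189, 199 and 204 in the negative libraries (0.06, SE 0.08, adjusted p = 0.651, edgeR with block). Stard4, a cytosolic sterol carrier and a known SREBP-2 target, was at 9.34, 6.73, 11.5 and 7.79 against 11.4, 7.24, 10.6 and 8.04 CPM, with number at 91.5%. Over the 4 genes, the group difference was 0.0065 (interval -0.29 to 0.36).

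Which strand setting was used in counting is not stated in the labels. In the GENCODE M21 annotation 12 of the 30 genes share exon bases with another gene, and 4 share more than 10% with a protein-coding one. Besides Mbtps2 and Tm7sf2 these are Fdps (26.7%, Gm43738, same strand) and Fdft1 (18.3%, Ctsb, opposite strand). Their values are uncertain, and the share of annotated bases does not say by how much the counts are affected. Depth did not limit most of the set: 29 genes had more than 100 counts and 15 more than 1000 in every library.

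Outside the 30 genes, 6 lists of neighbouring lipid pathways with 65 genes were read from the same fits. No gene of these lists passed without the block (edgeR), where 9 of the 63 tested had an unadjusted p under 0.05 (all genes 16.3%). With the block, 11 of the 63 passed, 7 higher and 4 lower, a share near that of all genes, of which 15.7% passed, 8.3% higher and 7.43% lower. Among 9 tested other targets of SREBP-2, Tmem97, a sterol-responsive membrane protein, fell (1 of 9, 11.1%) and none rose. It was at 16.0, 16.8, 17.9 and 14.6 CPM in the positive libraries and 20.2, 19.9, 20.9 and 16.5 in the negative ones, lower in each number with overlapping groups (blocked log2 fold change -0.25, SE 0.07, adjusted p = 0.0427, edgeR; unblocked adjusted p = 0.286).

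Of 13 tested fatty acid genes under SREBP-1, 2 fell and none rose with the block (15.4%, against 15.7% of all genes, 7.43% lower). Of the 13 estimates 10 were below 0, with a median of -0.14, where 6200 of the 12610 genes were below 0 and their median was 0.0051. Over the 13 genes the group difference of the set mean was -0.27 (interval -0.66 to 0.076). The number differences were -0.23, -0.11, -0.12 and -0.64, the largest in number 4. Scd1, the stearoyl-CoA desaturase, was low in all libraries, at 0.441, 0.688, 0.557 and 0.408 CPM in the positive and 1.12, 1.66, 2.43 and 3.95 in the negative ones. The groups did not overlap, and the blocked log2 fold change was -2.01 (SE 0.35, adjusted p = 0.0140, edgeR). Fads2, another desaturase, had -0.63 (SE 0.18, adjusted p = 0.0454). The negative library 4 was highest for Scd1 and also highest in summed stromal and osteoclast markers. The part of those markers in the difference was not tested.

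Of 10 genes of sterol-regulated protein degradation, Syvn1, a ubiquitin ligase of the endoplasmic reticulum, rose and none fell (10%, against 15.7% of all genes). It was at 120, 124, 121 and 137 CPM against 100, 99.2, 84.0 and 97.6, without overlap (0.40, SE 0.07, adjusted p = 0.0118, edgeR with block). LXR are the nuclear receptors that sense oxysterols. Of 9 tested genes of efflux, oxysterols and LXR, 2 rose and 1 fell with the block (33.3%). Over all genes 15.7% passed with the block, 8.3% higher and 7.43% lower. Ch25h, which makes an oxysterol that blocks SREBP processing, rose from 112, 111, 56.9 and 88.3 to 178, 137, 75.6 and 175 CPM, with overlapping groups (0.59, SE 0.11, adjusted p = 0.0177). Mylip, a ubiquitin ligase induced by LXR, had 0.40 (SE 0.08, adjusted p = 0.0197), and Nr1h3, which encodes LXR alpha, -0.23 (SE 0.06, adjusted p = 0.0450). Of 10 genes listed under lysosomal and late endosomal sterol handling, 3 rose and none fell (30%, against 8.3% of all genes higher and 7.43% lower). The list also takes in lipid transfer proteins. The 3 genes were Gramd1b, a sterol transfer protein (0.50, SE 0.08, adjusted p = 0.0101), Vps13c, a lipid transfer protein (0.35, SE 0.08, adjusted p = 0.0254), and Lipa, the lysosomal acid lipase (0.27, SE 0.06, adjusted p = 0.0286). Of 12 genes of isoprenoid use, Rabggta, a geranylgeranyl transferase subunit, rose as 1 of 12 (8.33%, against 15.7% of all genes), at 0.30 on the log2 scale (SE 0.08, adjusted p = 0.0340, edgeR with block). The shares are descriptions of short lists, and their difference from all genes was not tested. Without number 2, Ch25h alone of these 11 genes still passed with the block (adjusted p = 0.0438), and without number 3 Gramd1b and Syvn1 did (0.0378 and 0.0411).

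**Figure D5:**
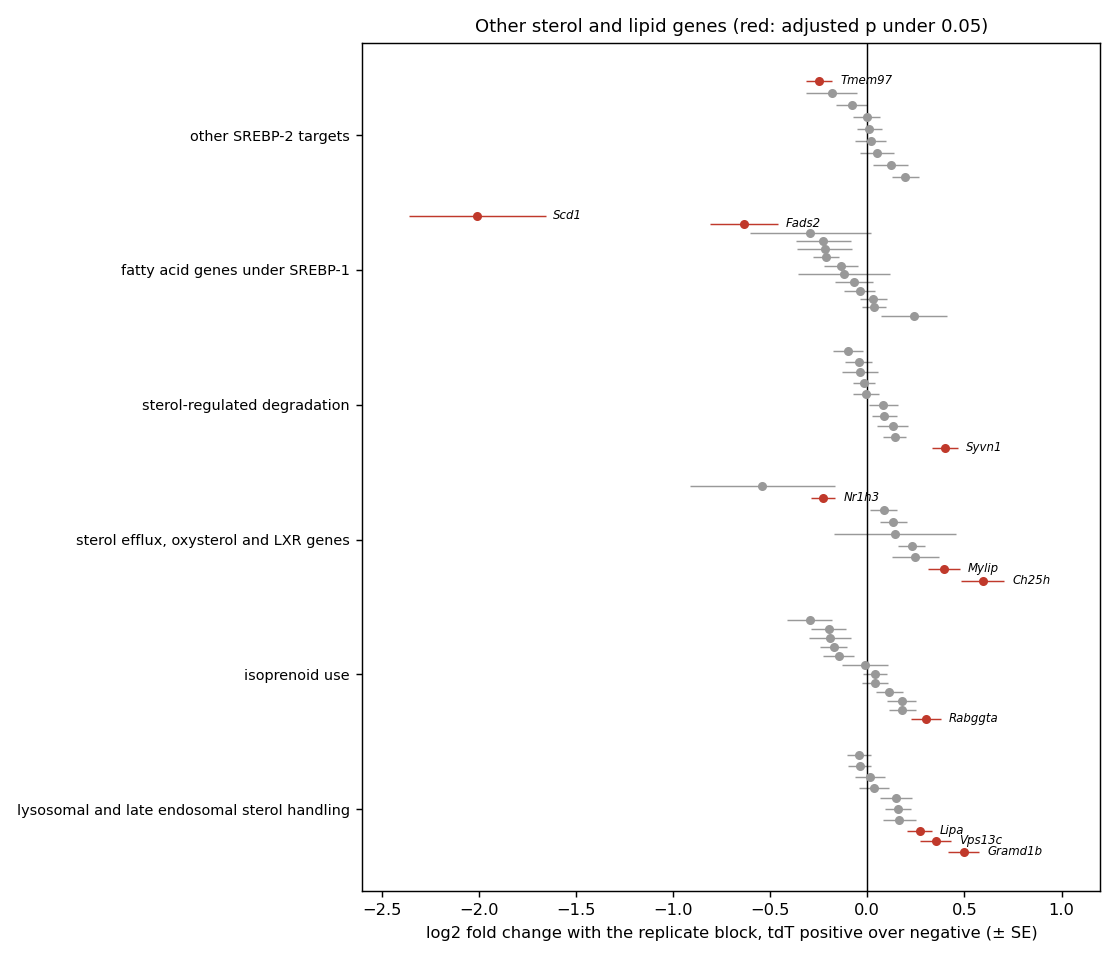
Blocked log2 fold change (x axis, tdT positive over tdT negative, with SE) of each tested gene in the 6 lists of neighbouring pathways; red marks an adjusted p under 0.05. Scd1, at -2.01, lies farthest to the left, and Ch25h, at 0.59, farthest to the right.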

How the data were processed

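PolyA RNA was sequenced from 8 libraries (4 tdT positive, 4 tdT negative) with a stranded TruSeq kit on a NextSeq instrument, per the labels' protocols. The deposited values are counts per gene. STAR and the mm10 build are named in the submitters' processing notes, and the counting tool and its settings were not stated in the labels. The 8 rows of the table without a gene symbol were left out of library sizes and tests.

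Counts were analysed in R 4.3.3 with edgeR 4.0.16 (filterByExpr with a minimum count of 10 and a total of 15, TMM, robust quasi-likelihood fit, group only, all 8 libraries, Benjamini-Hochberg over 12610 genes, threshold 0.05). The labels do not say what a replicate number marks. Equal numbers deviated together (correlation over 0.1 in each of the 4 pairs), so the number was also fitted as a block. For many genes only the blocked estimate is given, also where the block changed no call. Set means are means of log2 CPM with a prior count of 2. Intervals of set means came from inverting the exact two-sided permutation test, whose smallest p is 0.0286, and they carry no p. Alternatives were other scalings, filters and thresholds, DESeq2 1.42.0, limma 3.58.1 voom, and leaving out libraries. The fits were tested on simulated counts. No 2 libraries of the same group agreed within sampling noise, and pairs across the groups were not compared in this way.

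The genes and lists were chosen with earlier results of these data known. Values per library are given for sterol genes that passed with or without the block and for Srebf1, Srebf2, Scap, Insig1, Hmgcs1 and Sqle. The other genes are given by range or by library where they show the pattern of the set, and these were picked after their values were seen. Up to 4 passing genes are named per neighbouring list, some by fold change alone. Pnpla3 and Cyp7b1 did not pass the filter. Some genes of the neighbouring lists are not reported here.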

Additional observations from a re-analysis of the deposited data

Results flagged for a closer look

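In Acat1, the positive library 4 lay apart from the other 3 of its group: it was at 18.7 CPM and they were at 23.1 to 23.5. Its gap to the nearest of them was 0.919 of the group's range, above the critical value of 0.829 of Dixon's test for 4 samples. Of the 60 groups examined (30 genes in 2 groups of 4 libraries) this was the only group so marked, where chance alone marks about 1 in 20. Without positive library 4 the log2 fold change of Acat1 was -0.32 without the block (adjusted p = 0.168, edgeR).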

How the results depend on the processing

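No sterol gene passed under the main test, and none under the other scalings and filters without the block, voom without the block or the non-robust fit. With the replicate block, 1 of the 30 passed (1984 of all genes), and 1 also with the block and DESeq2 size factors (1997), library totals (1418), upper quartile factors (2022), no filter (2190), a filter of 1 CPM in 4 libraries (1671) or the non-robust fit (1998), and in voom with the block (2103). The blocked adjusted p of Acat1 over the other scalings and filters was 0.0107 to 0.0305. DESeq2's Wald test passed 1 (921 of all genes), and 2 with the block (2504). At an adjusted p of 0.1, 1 passed without the block (509) and 2 with it (3209). Leaving out libraries or numbers, 0 to 1 sterol genes passed and the genes passing over all genes tested came to 2 to 2727: without the block, 447 without negative library 1, 224 without negative library 4 and 2 otherwise, and with it 904, 245, 733 and 2727 without numbers 1 to 4. The set difference was between -0.10 (the median over the 30 genes in place of the mean) and 0.059 over its alternatives, with a sign that turned in several; with library totals the median over all genes was -0.072 and the set difference -0.072, against 0.0053 and 0.0061 with TMM.

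The sign of 22 genes turned under some alternative, and in the main fit none of these had a log2 value over 0.15 in size. With library totals the values were -0.046 for Fdft1, -0.014 for Scap, -0.071 for Insig1, -0.030 for Insig2, -0.026 for Soat1 and -0.037 for Npc1. With upper quartile factors they were -0.0063 for Fdft1 and -0.024 for Insig1, with the 1 CPM filter -0.0014 for Insig1, and with no filter 0.0011 for Ggps1, 0.0080 for Sqle and 0.0010 for Tm7sf2. Sqle and Tm7sf2 were at 0.011 and 0.018 with the replicate block, 0.0061 and 0.013 in DESeq2 with the block, 0.010 and 0.027 in voom, and 0.010 and 0.012 in voom with the block. Leaving out libraries or numbers gave -0.060 to 0.24 for Acat2, -0.20 to 0.0020 for Mvk, -0.042 to 0.14 for Pmvk, -0.012 to 0.29 for Idi1, -0.22 to 0.11 for Fdps, -0.044 to 0.035 for Ggps1, -0.052 to 0.14 for Fdft1, -0.10 to 0.14 for Sqle, -0.21 to 0.17 for Tm7sf2 and -0.14 to 0.0036 for Nsdhl. It gave -0.25 to 0.060 for Hsd17b7, -0.19 to 0.071 for Ebp, -0.12 to 0.0997 for Sc5d, -0.076 to 0.12 for Insig1, -0.0094 to 0.097 for Insig2, -0.10 to 0.055 for Mbtps1, -0.18 to 0.16 for Mbtps2, -0.22 to 0.041 for Stard4, -0.029 to 0.12 for Soat1, -0.035 to 0.18 for Npc1 and -0.13 to 0.11 for Npc2. The cause of these moves was not tested.

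Among the neighbouring lists, library totals with the block lost Fads2 (adjusted p = 0.0515), Lipa (0.0843), Rabggta (0.0961) and Vps13c (0.0726), and no filter with the block lost Nr1h3 (0.0615) and Tmem97 (0.0630), each by edgeR. Idi1, at 48 counts in its lowest library, was the gene of the 30 most limited by depth.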
